A study of Homo sapiens with 8 samples.

Results

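The DNA replication genes described here are 41 human genes that license replication origins, run the replication fork or supply it with nucleotides, together with 3 regulators of the step from G1 into S phase. They were taken by gene name from a table of 61209 gene names, and all 41 were found and passed the filter on low counts, which kept 22554 genes. RNA was sequenced from derivatives of H1, a human embryonic stem cell line in wide use, that carried an MSX1 reporter (Msx1-P2A-tdTomato). Every group shared the steps before treatment: on day 0 the cells were given 10 ng/mL FGF2, 40 ng/mL BMP4, 50 ng/mL Activin A and 6 µM of the GSK3 inhibitor CHIR99021, and then 60 ng/mL BMP4 with 1 µM CHIR99021 for 3 days. On day 4 they were dissociated and spun into pellets of 25000 cells per well. A transfer on day 5 and 3 days of pellet culture followed in every group. On day 8 the MSX1-reporter-positive cells were sorted by the surface receptor PDGFRA. The 8 libraries form 4 groups of 2: FGF8+10 Pdgfra-positive, FGF8+10 Pdgfra-low, Mock Pdgfra-positive and Mock Pdgfra-low. FGF8 and FGF10 were given at 500 ng/mL each. The labels describe the FGF medium for all libraries alike, so what the Mock medium held is not known here. The sort came after the treatment, so the same gate may have taken different cells in each treatment. The labels do not say whether a group's 2 libraries trace back to independent differentiations, and p-values therefore reflect the variation among these libraries, which may be technical.

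Before a cell can copy its DNA, the origin recognition complex, CDC6 and CDT1 load rings of the MCM helicase onto origins, and CDC45 and the GINS complex later join the ring to form the active helicase. Primase and DNA polymerase alpha start each strand, polymerases delta and epsilon extend it, and the PCNA clamp, placed by replication factor C, holds them on the template. Many of these genes are transcribed in a wave at the entry into S phase under E2F factors, so their RNA is widely read as a mark of cycling cells. FGF8 and FGF10 signal between ectoderm and mesenchyme in the vertebrate limb bud.

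Libraries held 47698561 to 64390444 counts, and the log2 CPM of a group's 2 libraries had a Pearson's r of 0.9976 to 0.9984 over genes. CPM stands for counts scaled to the library's total after TMM, edgeR's trimmed-mean normalization. PDGFRA averaged 714 CPM in FGF8+10 Pdgfra-positive against 286 CPM in FGF8+10 Pdgfra-low libraries, and 454 CPM in Mock Pdgfra-positive against 192 CPM in Mock Pdgfra-low libraries, the direction the sort labels give. MSX1 averaged 50.3 CPM in FGF8+10 Pdgfra-positive, 50.7 CPM in FGF8+10 Pdgfra-low, 21.7 CPM in Mock Pdgfra-positive and 26.2 CPM in Mock Pdgfra-low libraries. Of the lateral plate and limb genes, PRRX1, TWIST1, HAND1, HAND2 and FOXF1 averaged at least 40.0 CPM in each group, while TBX5, which marks the forelimb field, averaged 2.74 to 3.71 CPM. TBX4 averaged 33.1 and 14.2 CPM in FGF8+10 Pdgfra-positive and FGF8+10 Pdgfra-low libraries. In Mock Pdgfra-positive and Mock Pdgfra-low libraries it averaged 88.2 and 86.2 CPM.

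Promoters of 5 members are shown because the replication genes are known as E2F targets, and because these 5 span the range of responses. They were chosen after the values had been seen. RefSeq promoter windows (GRCh38.p14, 250 bases before to 50 after a start) were available for 35 of the 41 members, 46 windows in all, and the other 6 (MCM4, MCM5, GINS4, RPA2, RPA3 and CCNE2) are named only. Each window was searched on both strands for the E2F words TTTCCCGC, TTTCGCGC, TTTGCCGC and TTTGGCGC, which are in capitals in the sequences, in whichever orientation they occur on the printed strand. GINS1 (chr20:25407423-25407722, plus strand) had the largest ratio of its highest to its lowest group mean. MCM6 (chr2:135876394-135876693, minus strand) holds 4 words in overlapping pairs. CDC6 (chr17:40287629-40287928, plus strand) encodes a loader of the helicase, E2F1 (chr20:33686336-33686635, minus strand) encodes one of the factors that read such words, and CCNE1 (chr19:29811741-29812040, plus strand) was the member that was called in no comparison.
GINS1: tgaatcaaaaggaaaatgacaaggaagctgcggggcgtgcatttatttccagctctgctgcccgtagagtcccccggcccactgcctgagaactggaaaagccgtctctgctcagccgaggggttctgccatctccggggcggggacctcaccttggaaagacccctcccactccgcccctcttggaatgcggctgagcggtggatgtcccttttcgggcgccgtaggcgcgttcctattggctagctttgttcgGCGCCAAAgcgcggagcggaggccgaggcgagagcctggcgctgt
MCM6: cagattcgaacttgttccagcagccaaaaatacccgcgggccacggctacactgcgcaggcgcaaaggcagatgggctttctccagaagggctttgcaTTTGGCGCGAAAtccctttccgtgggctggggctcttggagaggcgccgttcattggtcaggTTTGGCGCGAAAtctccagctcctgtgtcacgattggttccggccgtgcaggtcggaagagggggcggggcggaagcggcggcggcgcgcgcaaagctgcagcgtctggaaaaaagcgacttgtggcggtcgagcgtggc
CDC6: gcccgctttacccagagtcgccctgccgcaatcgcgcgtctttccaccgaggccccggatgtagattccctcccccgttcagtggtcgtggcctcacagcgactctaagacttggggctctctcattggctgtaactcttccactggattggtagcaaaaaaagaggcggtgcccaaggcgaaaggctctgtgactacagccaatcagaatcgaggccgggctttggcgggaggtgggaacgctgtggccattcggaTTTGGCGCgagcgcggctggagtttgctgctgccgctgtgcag
E2F1: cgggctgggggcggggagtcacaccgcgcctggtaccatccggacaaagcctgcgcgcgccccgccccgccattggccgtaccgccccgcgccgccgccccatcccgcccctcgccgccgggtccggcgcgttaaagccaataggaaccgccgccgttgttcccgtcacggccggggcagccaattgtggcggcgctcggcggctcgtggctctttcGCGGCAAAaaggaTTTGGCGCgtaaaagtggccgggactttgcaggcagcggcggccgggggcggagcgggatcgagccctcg
CCNE1: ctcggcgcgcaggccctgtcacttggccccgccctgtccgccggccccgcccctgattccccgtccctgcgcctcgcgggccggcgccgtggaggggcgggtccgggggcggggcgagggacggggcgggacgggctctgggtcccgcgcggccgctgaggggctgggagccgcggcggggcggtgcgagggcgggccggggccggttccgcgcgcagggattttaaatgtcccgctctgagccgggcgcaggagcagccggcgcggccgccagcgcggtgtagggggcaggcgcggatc
GINS1 carries its word at bases 6 to 13 after the start, in the reverse orientation, and CDC6 has TTTGGCGC at bases 8 to 15. The words of E2F1 lie 33 to 26 and 20 to 13 bases before its start. In MCM6, a pair spans 152 to 141 bases before the start and the other pair 90 to 79 bases before it. The CCNE1 window has none of the words, which says only that these letters are not in these 300 bases.

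An E2F word was found in 19 of the 35 members with a window, 54.3%, against 3.99% of all 27305 genes with one. The box CCAAT, bound by NF-Y, was found in 21 members, 60.0%, against 39.7% of all genes, and both stood in a single window in 11 members, 31.4%, against 1.48%. The word TTTGAA, known from promoters of genes expressed late in the cycle, was found in 2 members, 5.71%, against 18.2% of all genes. Matches of letters are a description and not evidence of binding.

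The replication genes were more abundant with FGF8+10 than with Mock in both sorted populations, and under FGF8+10 they were more abundant in Pdgfra-low than in Pdgfra-positive cells. Summed over the 41 genes, they took 2212 and 2237 CPM in FGF8+10 Pdgfra-positive and 3092 and 3122 CPM in FGF8+10 Pdgfra-low libraries. The sums were 1420 and 1402 CPM in Mock Pdgfra-positive and 1608 and 1625 CPM in Mock Pdgfra-low libraries. No sum of an FGF8+10 library came as low as that of any Mock library. In Pdgfra-positive cells, 36 of the 41 rose and 0 fell by edgeR's quasi-likelihood test at an adjusted p under 0.05, where 25.8% of all 22554 tested genes rose and 25.1% fell. In Pdgfra-low cells, 40 rose and 0 fell, where 27.9% of tested genes rose and 27.7% fell. The count that fell was also 0 in both populations at an unadjusted p under 0.05 and with DESeq2. Among the 11411 genes at least as abundant as the lowest member, POLA2, the share that rose was 39.6% in Pdgfra-positive and 41.7% in Pdgfra-low cells.

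With library totals in place of TMM, MCM8, GINS3, RFC2 and POLA2 were also called higher in Pdgfra-positive cells. The median member changed by 0.69 on the log2 scale in Pdgfra-positive cells and by 0.91 in Pdgfra-low cells, and the median of all tested genes was -0.01 and -0.02 in the same comparisons. A rise of at least 2-fold was seen for 5 members in Pdgfra-positive cells, against 7.29% of tested genes, and for 19 members in Pdgfra-low cells, against 9.45%. Those 5, GINS1, GINS4, CDC45, PCNA and PRIM1, were among the 19. Both FGF8+10 libraries lay above both Mock libraries for 39 members in Pdgfra-positive cells, where 36.6% of all tested genes did so and 37% lay below. RFC2 overlapped there, and CCNE1 separated the other way, with both FGF8+10 libraries narrowly below both Mock libraries. In Pdgfra-low cells both FGF8+10 libraries lay above both Mock libraries for 40 members, where 37.4% of tested genes did so and 38.6% lay below, and CCNE1 overlapped. In RNA from whole sorted populations, more cells in S phase and more of these transcripts per cell cannot be told apart.

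**Figure D1:**
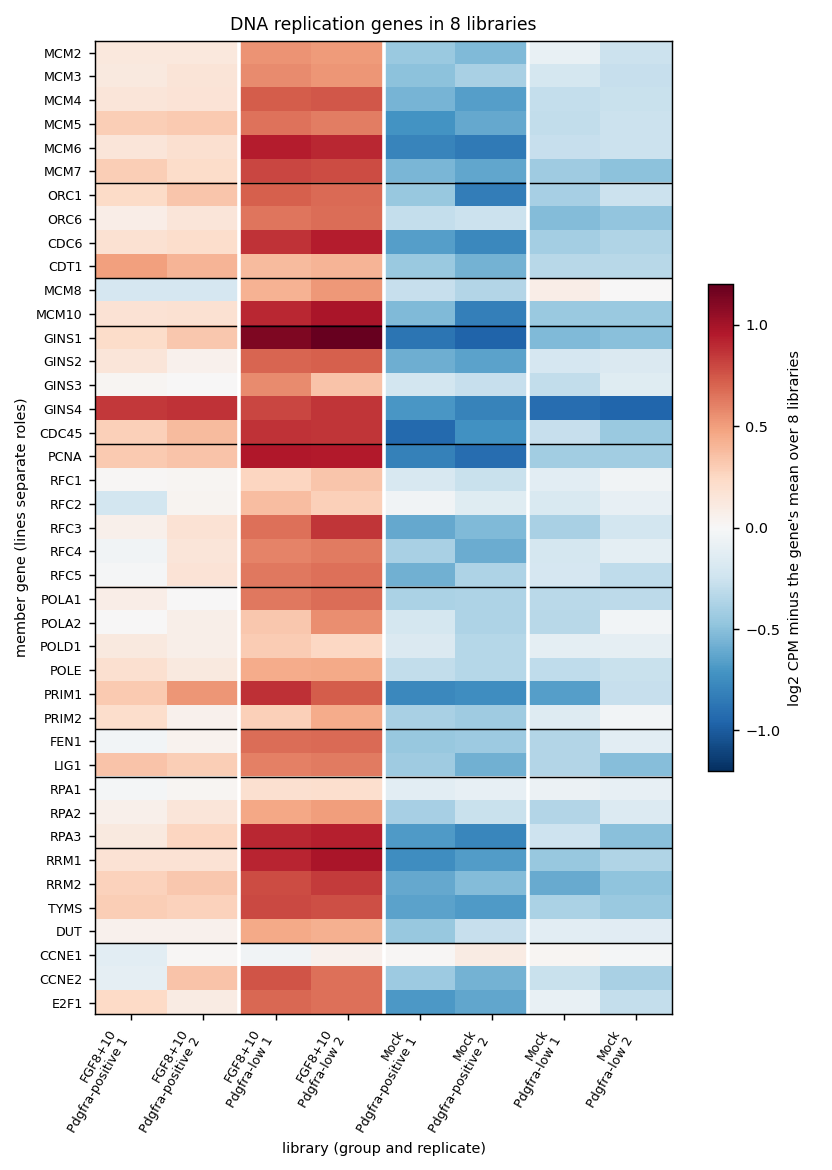
Each of the 41 genes (down the page, by role) in each of the 8 libraries (across), coloured by log2 CPM minus that gene's mean over the 8 libraries, red above and blue below it. The FGF8+10 Pdgfra-low libraries are the reddest for 38 genes by group mean and the Mock Pdgfra-positive libraries the bluest for 37, and CCNE1 is nearly uncoloured.

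Ranked by group mean, 35 of the 41 members had the same order: FGF8+10 Pdgfra-low highest, then FGF8+10 Pdgfra-positive, Mock Pdgfra-low and Mock Pdgfra-positive. The 6 exceptions were ORC6, RFC2, MCM8, CDT1, GINS4 and CCNE1. Between the middle groups of that order, both FGF8+10 Pdgfra-positive libraries lay above both Mock Pdgfra-low libraries for 38 members, where 37.5% of all tested genes did so, overlapped them for RFC2 and CCNE1, and lay below them for MCM8, where 37.9% of tested genes did so. The ratio of the highest to the lowest group mean was 4.22 for GINS1, 3.53 for PCNA and 3.46 for GINS4, and only 1.24 for RPA1 and 1.08 for CCNE1.

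**Figure D2:**
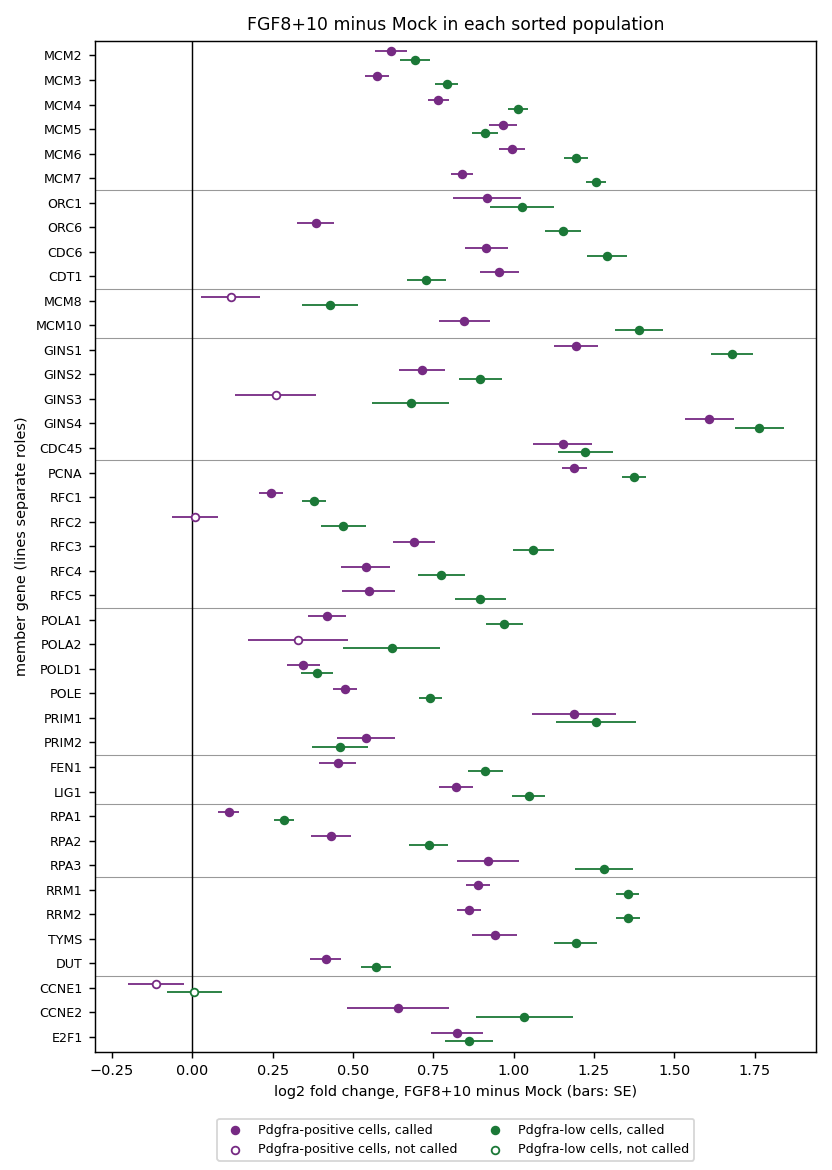
The log2 fold change of FGF8+10 minus Mock for each member in Pdgfra-positive (purple) and Pdgfra-low cells (green), with its SE as a bar, filled where the adjusted p was under 0.05 and open where it was not. Every green point but CCNE1 is filled, 38 of 41 green points lie to the right of their purple partners, and the open purple points are MCM8, GINS3, RFC2, POLA2 and CCNE1.

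The MCM2 to MCM7 proteins form the ring-shaped helicase that unwinds DNA, and all 6 rose in both populations, with a median log2 change of 0.80 in Pdgfra-positive and 0.96 in Pdgfra-low cells. MCM7 (chr7:100092728-100101940 of GRCh38, as for the other genes) had 180.2 and 171 CPM in FGF8+10 against 101 and 95.7 CPM in Mock Pdgfra-positive libraries. It had 256 and 254 CPM in FGF8+10 against 109 and 104 CPM in Mock Pdgfra-low libraries. Its FGF8+10 values lay well above its Mock values, and its Mock populations lay close together. MCM7 rose by 0.84 ± 0.033 on the log2 scale (SE, 2 libraries a group) in Pdgfra-positive cells, with an adjusted p of 6.14e-26 by edgeR's quasi-likelihood test, and by 1.26 ± 0.032 in Pdgfra-low cells, with an adjusted p of 2.27e-33. MCM6 had 94.5 and 97.9 CPM in FGF8+10 against 49.2 and 47.4 CPM in Mock Pdgfra-positive libraries, and 165 and 159.6 CPM in FGF8+10 against 70.4 and 71.3 CPM in Mock Pdgfra-low libraries. This was the largest rise of the ring in Pdgfra-positive cells, 0.99 ± 0.039, and it was 1.19 ± 0.037 in Pdgfra-low cells. All FGF8+10 libraries of MCM6 exceeded all of its Mock libraries. MCM3 had 114 and 116 CPM in FGF8+10 against 74.2 and 79.97 CPM in Mock Pdgfra-positive libraries, the smallest rise of the ring there (0.58 ± 0.037). MCM2 had 87.01 and 85.4 CPM in FGF8+10 against 56.4 and 50.2 CPM in Mock Pdgfra-low libraries, the smallest rise of the ring in those cells (0.69 ± 0.047). Neither gene overlapped between treatments. MCM4 and MCM5 rose by 0.76 ± 0.033 and 0.97 ± 0.044 in Pdgfra-positive cells and by 1.01 ± 0.031 and 0.91 ± 0.042 in Pdgfra-low cells.

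The loaders of that ring also rose, all 4 in both populations. ORC1, the largest subunit of the origin recognition complex, rose by 0.92 ± 0.11 in Pdgfra-positive and 1.02 ± 0.10 in Pdgfra-low cells. ORC6 (chr16:46689643-46698394), the smallest subunit, had 38.99 and 40.9 CPM in FGF8+10 against 30.3 and 30.9 CPM in Mock Pdgfra-positive libraries, and 57.7 and 58.7 CPM in FGF8+10 against 25.8 and 26.5 CPM in Mock Pdgfra-low libraries. The groups stood apart in both populations, and under Mock the Pdgfra-positive libraries were the higher. ORC6 rose by 0.38 ± 0.057 in Pdgfra-positive cells and by 1.15 ± 0.056 in Pdgfra-low cells. CDC6, the ATPase that helps ORC place the ring, had 32.1 and 32.9 CPM in FGF8+10 against 17.9 and 16.6 CPM in Mock Pdgfra-positive libraries, and 51.8 and 54.4 CPM in FGF8+10 against 21.4 and 22.1 CPM in Mock Pdgfra-low libraries. Its FGF8+10 Pdgfra-low libraries were the highest and its Mock Pdgfra-positive libraries the lowest. CDC6 rose by 0.91 ± 0.066 in Pdgfra-positive and by 1.29 ± 0.062 in Pdgfra-low cells. CDT1 (chr16:88803789-88809258), which brings the MCM ring to ORC and is destroyed in S phase, had 47.1 and 44.6 CPM in FGF8+10 against 24.6 and 22.7 CPM in Mock Pdgfra-positive libraries, and 43.8 and 44.5 CPM in FGF8+10 against 26.6 and 26.7 CPM in Mock Pdgfra-low libraries. Its FGF8+10 libraries of both populations lay close together, and each exceeded every Mock library. CDT1 rose by 0.95 ± 0.061 in Pdgfra-positive cells and by 0.73 ± 0.059 in Pdgfra-low cells, with adjusted p of 3.15e-18 and 9.55e-15 by edgeR's quasi-likelihood test.

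Of the 2 MCM proteins outside the ring, MCM10, which helps activate the loaded helicase, had 24.9 and 25.04 CPM in FGF8+10 against 15.3 and 12.5 CPM in Mock Pdgfra-positive libraries, and 41.5 and 43.5 CPM in FGF8+10 against 16.2 and 16.3 CPM in Mock Pdgfra-low libraries. It rose by 0.85 ± 0.079 in Pdgfra-positive and by 1.39 ± 0.074 in Pdgfra-low cells, with no overlap in either. MCM8, a helicase known mainly from recombination repair, had 12.7 and 12.7 CPM in FGF8+10 against 12.03 and 11.4 CPM in Mock Pdgfra-positive libraries, and 19.5 and 20.96 CPM in FGF8+10 against 15.4 and 14.6 CPM in Mock Pdgfra-low libraries. The Pdgfra-positive libraries of the treatments lay close together, 0.12 ± 0.092 with an adjusted p of 0.3 by edgeR's quasi-likelihood test, and in Pdgfra-low cells it rose by 0.43 ± 0.087. Both Mock Pdgfra-low libraries of MCM8 were above both FGF8+10 Pdgfra-positive libraries.

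The largest rise in each population was that of GINS4, in the group that turns the loaded ring into a running helicase. GINS4 (chr8:41529218-41545030), a GINS subunit, had 33.8 and 34.3 CPM in FGF8+10 against 11.6 and 10.8 CPM in Mock Pdgfra-positive libraries, and 32.8 and 34.1 CPM in FGF8+10 against 9.97 and 9.73 CPM in Mock Pdgfra-low libraries. Every FGF8+10 library stood far above every Mock library, and the FGF8+10 libraries of the populations overlapped. GINS4 rose by 1.61 ± 0.077 in Pdgfra-positive cells (adjusted p 8.54e-23 by edgeR's quasi-likelihood test), the largest change of any member there, and by 1.76 ± 0.076 in Pdgfra-low cells. GINS1 (chr20:25391008-25452700) had 30.4 and 32.7 CPM in FGF8+10 against 14.2 and 13.4 CPM in Mock Pdgfra-positive libraries, and 56.7 and 59.9 CPM in FGF8+10 against 18.1 and 18.4 CPM in Mock Pdgfra-low libraries. It rose by 1.19 ± 0.069 in Pdgfra-positive and 1.68 ± 0.064 in Pdgfra-low cells, and its FGF8+10 Pdgfra-low libraries stood far above those of every other group. CDC45, the third component of the active helicase, rose by 1.15 ± 0.092 in Pdgfra-positive and 1.22 ± 0.085 in Pdgfra-low cells, and GINS2 rose by 0.71 ± 0.071 in Pdgfra-positive and 0.90 ± 0.067 in Pdgfra-low cells. GINS3 had 8.00 and 7.89 CPM in FGF8+10 against 6.77 and 6.52 CPM in Mock Pdgfra-positive libraries, and 11.7 and 10.01 CPM in FGF8+10 against 6.41 and 7.11 CPM in Mock Pdgfra-low libraries. At these low levels the Pdgfra-positive difference was 0.26 ± 0.12 with an adjusted p of 0.0814, not under 0.05 by edgeR's quasi-likelihood test, while the Pdgfra-low libraries rose by 0.68 ± 0.12.

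PCNA (chr20:5114953-5126626), the sliding clamp, had 106 and 108 CPM in FGF8+10 against 48.8 and 45.4 CPM in Mock Pdgfra-positive libraries, and 166 and 166 CPM in FGF8+10 against 64.1 and 63.9 CPM in Mock Pdgfra-low libraries. The groups were wide apart, and under each treatment the Pdgfra-low libraries were the higher. PCNA rose by 1.19 ± 0.039 in Pdgfra-positive cells and by 1.37 ± 0.037 in Pdgfra-low cells, with adjusted p of 6.56e-29 and 1.59e-32 by edgeR's quasi-likelihood test. The 5 subunits of replication factor C, which opens the clamp and sets it on DNA, moved less. RFC3, RFC4 and RFC5 rose by 0.69 ± 0.066, 0.54 ± 0.077 and 0.55 ± 0.082 in Pdgfra-positive cells and by 1.06 ± 0.063, 0.78 ± 0.073 and 0.90 ± 0.079 in Pdgfra-low cells. RFC1, the large subunit, had 97.2 and 97.99 CPM in FGF8+10 against 84.4 and 80.4 CPM in Mock Pdgfra-positive libraries, and 115 and 121 CPM in FGF8+10 against 88.6 and 93.5 CPM in Mock Pdgfra-low libraries. These small rises, 0.24 ± 0.038 in Pdgfra-positive and 0.38 ± 0.037 in Pdgfra-low cells, still passed the test in both populations. RFC2 had 25.2 and 30.2 CPM in FGF8+10 against 28.6 and 26.6 CPM in Mock Pdgfra-positive libraries, and 38.2 and 35.98 CPM in FGF8+10 against 25.97 and 27.5 CPM in Mock Pdgfra-low libraries. The Pdgfra-positive libraries of the treatments overlapped, with a change of 0.0075 ± 0.071 and an adjusted p of 0.945 by edgeR's quasi-likelihood test, and in Pdgfra-low cells RFC2 rose by 0.47 ± 0.070.

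The catalytic and primase genes had small to moderate changes with PRIM1 as the exception. PRIM1, the catalytic primase subunit that makes the RNA primers, had 10.03 and 11.7 CPM in FGF8+10 against 4.73 and 4.79 CPM in Mock Pdgfra-positive libraries, and 14.8 and 13.3 CPM in FGF8+10 against 5.09 and 6.67 CPM in Mock Pdgfra-low libraries. It rose by 1.19 ± 0.13 in Pdgfra-positive and 1.26 ± 0.12 in Pdgfra-low cells without overlap, although its 2 Mock Pdgfra-low libraries were uneven. PRIM2, the large primase subunit, rose by 0.54 ± 0.092 in Pdgfra-positive and 0.46 ± 0.088 in Pdgfra-low cells. POLA1, the catalytic subunit of polymerase alpha, rose by 0.42 ± 0.060 in Pdgfra-positive and by 0.97 ± 0.058 in Pdgfra-low cells. POLA2, its accessory subunit, had 5.26 and 5.48 CPM in FGF8+10 against 4.50 and 4.05 CPM in Mock Pdgfra-positive libraries, and 6.53 and 7.67 CPM in FGF8+10 against 4.16 and 5.09 CPM in Mock Pdgfra-low libraries. The treatments lay close but did not overlap in either population. POLA2 changed by 0.33 ± 0.16 in Pdgfra-positive cells, with an adjusted p of 0.0766 by edgeR's quasi-likelihood test, and rose by 0.62 ± 0.15 in Pdgfra-low cells. POLD1, the catalytic subunit of polymerase delta, had 57.8 and 55.99 CPM in FGF8+10 against 47.4 and 42.2 CPM in Mock Pdgfra-positive libraries, and 65.9 and 63.4 CPM in FGF8+10 against 49.1 and 49.6 CPM in Mock Pdgfra-low libraries. It rose by 0.34 ± 0.051 in Pdgfra-positive and 0.39 ± 0.050 in Pdgfra-low cells, and POLE, the catalytic subunit of polymerase epsilon, rose by 0.47 ± 0.037 in Pdgfra-positive and 0.74 ± 0.036 in Pdgfra-low cells.

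Both genes that finish the lagging strand rose in both populations. LIG1, the ligase that seals Okazaki fragments, had 66.8 and 64.5 CPM in FGF8+10 against 39.2 and 35.3 CPM in Mock Pdgfra-positive libraries, and 80.3 and 80.99 CPM in FGF8+10 against 41.1 and 36.9 CPM in Mock Pdgfra-low libraries. FEN1, the nuclease that trims their flaps, had 44.9 and 47.4 CPM in FGF8+10 against 33.5 and 33.97 CPM in Mock Pdgfra-positive libraries, and 73.3 and 73.7 CPM in FGF8+10 against 35.99 and 42.2 CPM in Mock Pdgfra-low libraries. For both genes the FGF8+10 Pdgfra-low libraries were the highest. LIG1 rose by 0.82 ± 0.053 in Pdgfra-positive and 1.05 ± 0.051 in Pdgfra-low cells, and FEN1 by 0.45 ± 0.058 in Pdgfra-positive and 0.91 ± 0.055 in Pdgfra-low cells, with no overlap of treatments in either.

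The 3 subunits of replication protein A, which coats single-stranded DNA, rose by unequal amounts. RPA3, the smallest subunit, had 15.5 and 17.1 CPM in FGF8+10 against 8.94 and 8.32 CPM in Mock Pdgfra-positive libraries, and 26.7 and 27.3 CPM in FGF8+10 against 12.1 and 10.1 CPM in Mock Pdgfra-low libraries. RPA1, the largest, had 127 and 131 CPM in FGF8+10 against 118 and 120.3 CPM in Mock Pdgfra-positive libraries, and 148 and 148 CPM in FGF8+10 against 122 and 120.2 CPM in Mock Pdgfra-low libraries. Between treatments the RPA3 libraries were wide apart and the RPA1 libraries narrowly separated, and under Mock the RPA1 libraries of the populations overlapped. RPA3 rose by 0.92 ± 0.10 in Pdgfra-positive and 1.28 ± 0.090 in Pdgfra-low cells, RPA2 by 0.43 ± 0.062 in Pdgfra-positive and 0.74 ± 0.060 in Pdgfra-low cells, and RPA1 by 0.11 ± 0.032 in Pdgfra-positive and 0.28 ± 0.032 in Pdgfra-low cells. The smallest of these, RPA1 in Pdgfra-positive cells, had an adjusted p of 0.0027 by edgeR's quasi-likelihood test.

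All 4 genes of nucleotide supply rose in both populations. RRM2, the small subunit of ribonucleotide reductase and the one that limits the enzyme to S phase, had 132 and 137 CPM in FGF8+10 against 71.6 and 76.4 CPM in Mock Pdgfra-positive libraries, and 188 and 196 CPM in FGF8+10 against 71.8 and 78.4 CPM in Mock Pdgfra-low libraries. RRM1 (chr11:4094707-4138932), the large subunit, had 116 and 116 CPM in FGF8+10 against 61.03 and 64.2 CPM in Mock Pdgfra-positive libraries, and 193 and 202 CPM in FGF8+10 against 74.6 and 79.8 CPM in Mock Pdgfra-low libraries. Under Mock the RRM2 libraries of the populations overlapped, while those of RRM1 did not. RRM2 rose by 0.86 ± 0.038 in Pdgfra-positive and 1.36 ± 0.037 in Pdgfra-low cells, and RRM1 by 0.89 ± 0.038 in Pdgfra-positive and 1.35 ± 0.036 in Pdgfra-low cells. TYMS, the thymidylate synthase, had 28.6 and 28.2 CPM in FGF8+10 against 15.01 and 14.6 CPM in Mock Pdgfra-positive libraries, the largest rise of the group in those cells (0.94 ± 0.071), and it rose by 1.19 ± 0.068 in Pdgfra-low cells. No Mock library of TYMS in Pdgfra-positive cells came near its FGF8+10 libraries. DUT, which keeps uracil out of DNA by breaking down dUTP, had 64.7 and 64.8 CPM in FGF8+10 against 45.6 and 51.5 CPM in Mock Pdgfra-positive libraries, and 85.5 and 83.7 CPM in FGF8+10 against 57.3 and 56.6 CPM in Mock Pdgfra-low libraries. Its rises, 0.41 ± 0.048 in Pdgfra-positive and 0.57 ± 0.046 in Pdgfra-low cells, were the smallest of the group.

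Among the 3 regulators of S phase entry, E2F1 and CCNE2 rose and CCNE1 did not pass the test. E2F1, a transcription factor of the replication genes, had 24.5 and 22.3 CPM in FGF8+10 against 12.9 and 13.5 CPM in Mock Pdgfra-positive libraries, and 33.6 and 32.96 CPM in FGF8+10 against 19.5 and 17.1 CPM in Mock Pdgfra-low libraries. Within each population the FGF8+10 libraries were the higher. E2F1 rose by 0.82 ± 0.080 in Pdgfra-positive and 0.86 ± 0.075 in Pdgfra-low cells. CCNE2, an E-type cyclin that activates CDK2, had 4.98 and 6.82 CPM in FGF8+10 against 3.97 and 3.61 CPM in Mock Pdgfra-positive libraries, and 9.07 and 8.48 CPM in FGF8+10 against 4.47 and 4.10 CPM in Mock Pdgfra-low libraries. Its 2 FGF8+10 Pdgfra-positive libraries were uneven. CCNE2 rose by 0.64 ± 0.16 in Pdgfra-positive and 1.03 ± 0.15 in Pdgfra-low cells, but the first call rests on the second FGF8+10 Pdgfra-positive library, without which the adjusted p was 0.0744 (edgeR's quasi-likelihood test). CCNE1 (chr19:29811991-29824312), the other E-type cyclin, had 14.8 and 16.3 CPM in FGF8+10 against 16.3 and 17.3 CPM in Mock Pdgfra-positive libraries, and 15.7 and 16.7 CPM in FGF8+10 against 16.4 and 15.9 CPM in Mock Pdgfra-low libraries. These libraries formed 1 narrow band across all groups. CCNE1 changed by -0.11 ± 0.087 in Pdgfra-positive cells and by 0.0058 ± 0.086 in Pdgfra-low cells, with adjusted p of 0.29 and 0.962 by edgeR's quasi-likelihood test.

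Members with and without an E2F word are set side by side here as a description, with no test. In Pdgfra-positive cells 16 of the 19 with a word rose, with a median log2 change of 0.71, and 14 of the 16 with a window but no word rose, with a median of 0.54. In Pdgfra-low cells 19 of 19 and 15 of 16 rose, with medians of 0.90 and 0.90. GINS1, MCM6, CDC6 and E2F1, whose windows are printed above with a word, rose in both populations, and CCNE1, printed without one, in neither. These 5 were picked after the values had been seen, so their match of word and response is no result. Of the members with a word, MCM8, GINS3 and POLA2 were not called in Pdgfra-positive cells. Of those with a window but no word, RFC2 and CCNE1 were not called there.

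The populations were then compared within each treatment. Under FGF8+10, 38 of the 41 members were lower in Pdgfra-positive than in Pdgfra-low cells and 0 were higher by edgeR's quasi-likelihood test, where 21.7% of tested genes were lower (36% of the 11411 more abundant ones) and 19.6% higher, and the median member was -0.51 on the log2 scale. CDT1, GINS4 and CCNE1 were not called, at 0.055 ± 0.057, 0.025 ± 0.068 and -0.060 ± 0.086. The largest differences were -0.88 ± 0.061 for GINS1, -0.77 ± 0.071 for MCM10, -0.77 ± 0.035 for RRM1 and -0.75 ± 0.036 for MCM6. Under FGF8+10 both Pdgfra-positive libraries lay below both Pdgfra-low libraries for 38 members, where 33.4% of tested genes did so, and above them for CDT1, where 33.8% of tested genes did so. GINS4 and CCNE1 overlapped.

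Under Mock the same comparison gave a smaller median difference. Of the 41, 26 were lower in Pdgfra-positive cells, where 13.4% of tested genes were lower (22.2% of the more abundant ones), and the median was -0.22. A single member was higher, ORC6, at 0.23 ± 0.059 (adjusted p 0.00258 by edgeR's quasi-likelihood test), where 12.4% of tested genes were higher. The other 14 were not called. Both Pdgfra-positive libraries lay below both Pdgfra-low libraries for 30 members, where 28.1% of tested genes did so, and above them for ORC6 and GINS4, where 30.5% did so, and the other 9 members overlapped. All 6 genes of the MCM ring were lower in Pdgfra-positive cells under Mock, with MCM6 at -0.55 ± 0.040 and MCM7 at -0.12 ± 0.034. Of the polymerase and primase genes only POLD1 and PRIM2 were lower, at -0.14 ± 0.052 and -0.32 ± 0.093, and RRM2 was at -0.020 ± 0.040 with an adjusted p of 0.784 by edgeR's quasi-likelihood test. The count of 26 rests in part on single libraries: it was 17 without the second Mock Pdgfra-positive library, and MCM7, POLD1 and PRIM2 were among the calls lost.

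**Figure D3:**
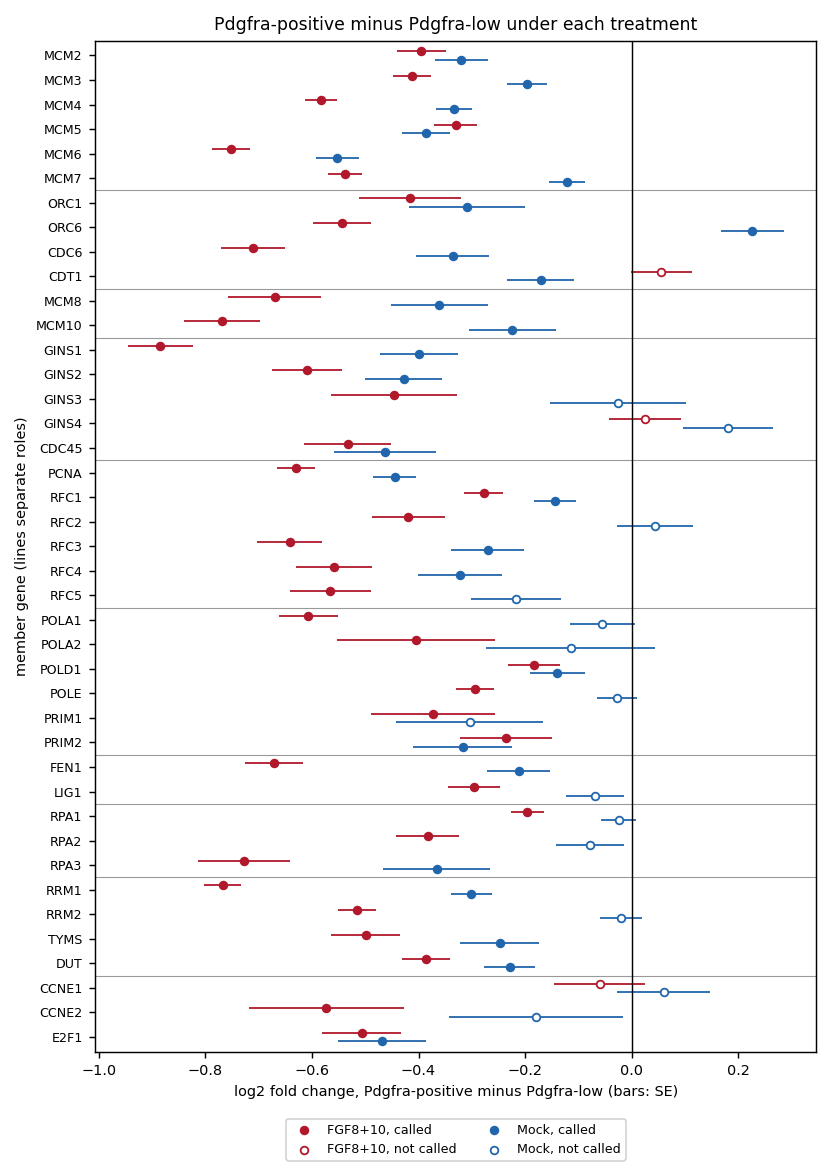
The log2 fold change of Pdgfra-positive minus Pdgfra-low cells for each member under FGF8+10 (red) and under Mock (blue), with its SE as a bar, filled where the adjusted p was under 0.05. The red points run from -0.88 to 0.055 with a median of -0.51, and the blue points have a median of -0.22. ORC6 is the filled point right of 0, under Mock.

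Whether the FGF8+10 effect differed between the populations was tested directly, as the effect in Pdgfra-positive cells minus that in Pdgfra-low cells. It was smaller in Pdgfra-positive cells for 21 members, where 14% of tested genes had a smaller or more negative effect there, and larger for 1, where 12% had a larger one. The median difference over the 41 was -0.25 on the log2 scale. ORC6 differed most, with -0.77 ± 0.080 (adjusted p 8.91e-11 by edgeR's quasi-likelihood test). POLA1 followed with -0.55 ± 0.083, MCM10 with -0.54 ± 0.11, RRM2 with -0.50 ± 0.053 and GINS1 with -0.49 ± 0.095. The 5 differences nearest to 0 were those of E2F1, POLD1, MCM5, PRIM1 and CDC45, at -0.038 ± 0.11, -0.044 ± 0.071, 0.055 ± 0.060, -0.069 ± 0.18 and -0.070 ± 0.13, none of them called. CDT1 was the member with the larger effect in Pdgfra-positive cells, by 0.23 ± 0.085, with an adjusted p of 0.0431 by edgeR's quasi-likelihood test. That call was lost with DESeq2 and without any of 6 of the 8 libraries in turn, the exceptions being FGF8+10 Pdgfra-positive replicate 2 and Mock Pdgfra-positive replicate 1. These 5 comparisons share libraries, so their values for a gene are not independent of each other.

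**Figure D4:**
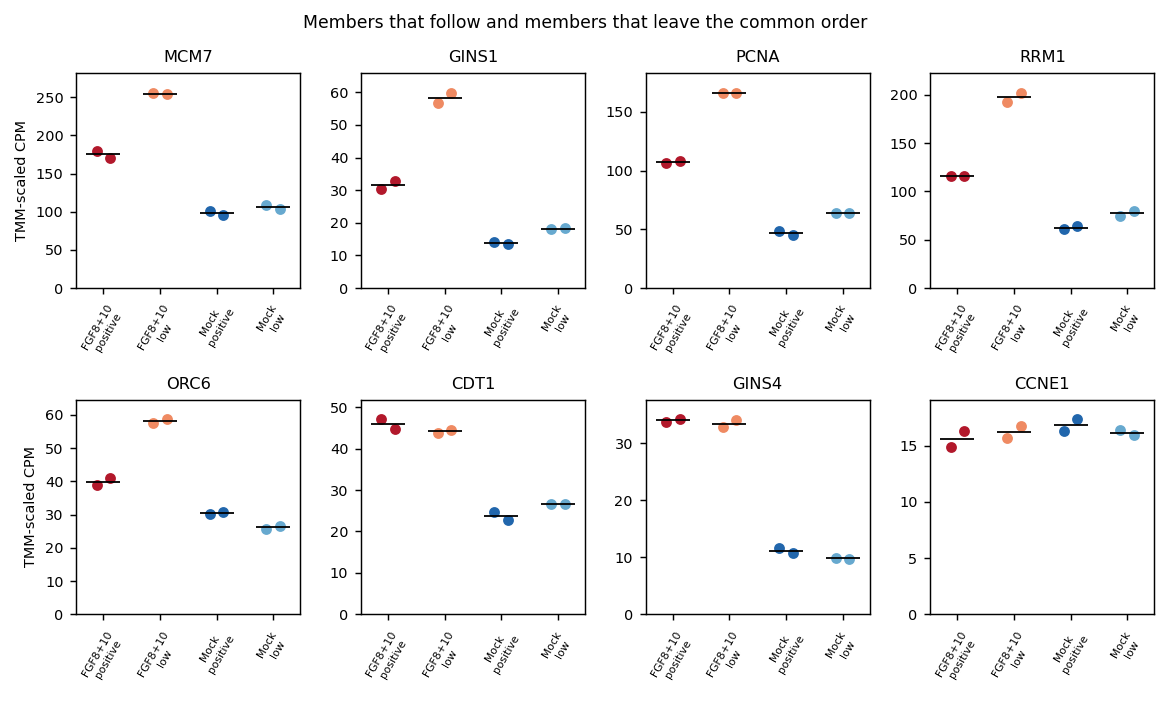
TMM-scaled CPM (axes from 0) in each library as points, with group means as lines, for 4 members that follow the common order in the upper panels (MCM7, GINS1, PCNA and RRM1) and 4 that leave it in the lower ones (ORC6, CDT1, GINS4 and CCNE1). ORC6 is higher in Mock Pdgfra-positive (30.3 and 30.9 CPM) than in Mock Pdgfra-low libraries (25.8 and 26.5 CPM), CDT1 and GINS4 were not called between the FGF8+10 populations, and CCNE1 stays within 14.8 to 17.3 CPM.

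Other genes of the replication pathway, 64 in 6 lists, mostly rose as well. In Pdgfra-positive cells 46 rose, 4 fell and 14 were not called, where 25.8% of all tested genes rose and 25.1% fell. In Pdgfra-low cells 53 rose, 1 fell and 10 were not called, where 27.9% of tested genes rose and 27.7% fell. Among the 11411 more abundant genes, 39.6% rose in Pdgfra-positive and 41.7% in Pdgfra-low cells. Their median log2 change was 0.46 in Pdgfra-positive and 0.75 in Pdgfra-low cells. Among licensing genes, 4 of 7 rose in Pdgfra-positive and 6 of 7 in Pdgfra-low cells. GMNN, the geminin that blocks CDT1 after origins have fired, rose most, by 0.82 ± 0.074 in Pdgfra-positive and 1.37 ± 0.070 in Pdgfra-low cells. Of the 8 genes of origin firing, 7 rose in Pdgfra-positive and 8 in Pdgfra-low cells, led by MTBP, a partner of the firing factor TICRR, with 0.83 ± 0.092 in Pdgfra-positive and 1.24 ± 0.090 in Pdgfra-low cells. DBF4, the activator of the CDC7 kinase, rose by 0.58 ± 0.065 in Pdgfra-positive and 1.10 ± 0.062 in Pdgfra-low cells.

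Of 19 further fork genes, 11 rose and 3 fell in Pdgfra-positive cells, where 25.8% of tested genes rose and 25.1% fell. In Pdgfra-low cells 12 of them rose and 1 fell, where 27.9% of tested genes rose and 27.7% fell. PCLAF, which binds PCNA, rose by 1.27 ± 0.10 in Pdgfra-positive and 1.27 ± 0.10 in Pdgfra-low cells, CLSPN, which links the fork to checkpoint signals, by 0.95 ± 0.079 in Pdgfra-positive and 1.48 ± 0.074 in Pdgfra-low cells, and DNA2, a flap nuclease, by 0.98 ± 0.077 in Pdgfra-positive and 1.39 ± 0.073 in Pdgfra-low cells. The genes that fell were POLD2, an accessory subunit of polymerase delta, at -0.76 ± 0.038 in Pdgfra-positive and -0.43 ± 0.037 in Pdgfra-low cells, and RNASEH2B and POLE4, at -0.46 ± 0.067 and -0.27 ± 0.12 in Pdgfra-positive cells. RNASEH2B and POLE4 were not called in Pdgfra-low cells, at -0.088 ± 0.065 and 0.0080 ± 0.11. RNASEH2A, which shares 53.3% of its exon bases with other genes, averaged 0.137 CPM, and no direction is read from it.

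In nucleotide supply outside the members, 6 of 8 genes rose and 1 fell in Pdgfra-positive cells, and 8 of 8 rose in Pdgfra-low cells. For this and the next 2 lists, the shares of all tested genes that rose were 25.8% in Pdgfra-positive and 27.9% in Pdgfra-low cells. The share that fell in Pdgfra-positive cells was 25.1%. SHMT1, a serine hydroxymethyltransferase of one-carbon metabolism, rose by 0.69 ± 0.086 in Pdgfra-positive and 1.00 ± 0.084 in Pdgfra-low cells. CMPK1, a nucleotide kinase, was the gene that fell in Pdgfra-positive cells, at -0.10 ± 0.037. All 7 genes that rebuild chromatin behind the fork rose in both populations, among them UHRF1, by 1.04 ± 0.052 in Pdgfra-positive and 1.25 ± 0.049 in Pdgfra-low cells, and the histone chaperone gene ASF1B, by 0.96 ± 0.081 in Pdgfra-positive and 1.48 ± 0.080 in Pdgfra-low cells. Of 15 genes of the E2F, RB and S phase kinase list, 11 rose in Pdgfra-positive and 12 in Pdgfra-low cells. In Pdgfra-positive cells E2F2, E2F7 and CCNA2, a cyclin A gene, rose most, by 1.32 ± 0.15, 1.11 ± 0.088 and 0.99 ± 0.045. In Pdgfra-low cells the order was E2F7, CCNA2 and RBL1, a relative of RB1, with 1.62 ± 0.086, 1.53 ± 0.043 and 1.24 ± 0.074, and E2F2 rose by 0.91 ± 0.15.

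**Figure D5:**
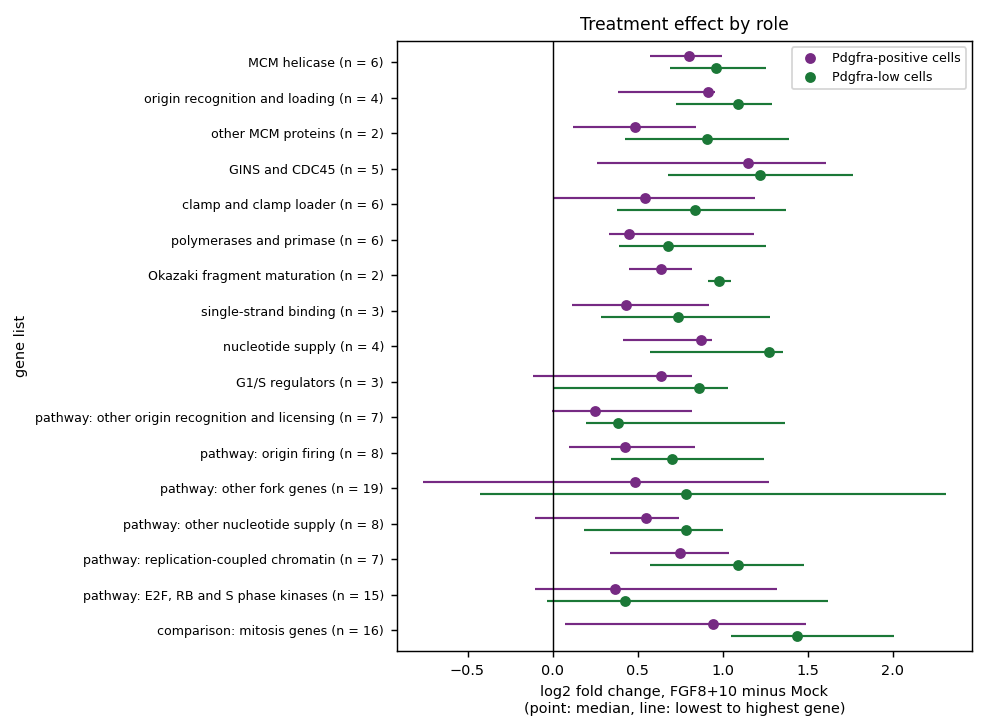
The median log2 fold change of FGF8+10 minus Mock (point) and the lowest to highest gene (line) for each role of the members, each further pathway list and a list of mitosis genes, in Pdgfra-positive (purple) and Pdgfra-low cells (green). The green median lies right of the purple one in every list, the mitosis list has medians of 0.94 in Pdgfra-positive and 1.44 in Pdgfra-low cells, and the long green line of the other fork genes ends at RNASEH2A, which averaged 0.137 CPM.

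A list of 16 mitosis genes was set beside the replication genes, since both are known to rise in cycling cells, in different phases. Of these, 15 rose in Pdgfra-positive and 15 in Pdgfra-low cells, where 25.8% and 27.9% of tested genes rose. Their medians were 0.94 and 1.44 on the log2 scale, and NUSAP1 was the gene not called. NUSAP1 shares 81.4% of its exon bases with other genes and averaged 0.533 CPM, and no direction is read from it. The summed level of the 16 genes was 2042 and 2042 CPM in FGF8+10 Pdgfra-positive, 3109 and 3138 CPM in FGF8+10 Pdgfra-low, 1006 and 1001 CPM in Mock Pdgfra-positive and 1094 and 1096 CPM in Mock Pdgfra-low libraries. BUB1, a spindle checkpoint kinase, rose by 1.49 ± 0.046 in Pdgfra-positive and 2.01 ± 0.044 in Pdgfra-low cells, and TOP2A, the topoisomerase that untangles sister chromosomes, by 1.12 ± 0.023 in Pdgfra-positive and 1.47 ± 0.023 in Pdgfra-low cells. The FGF8+10 effect was smaller in Pdgfra-positive cells for 15 of the 16, with a median difference of -0.52. Of all tested genes, 14% had a smaller or more negative effect there.

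Markers of other cell types were counted in the same comparisons, where 25.8% of all tested genes rose and 25.1% fell in Pdgfra-positive cells. In Pdgfra-low cells 27.9% rose and 27.7% fell, and marker counts near these shares are no result about a list. All 7 endothelial markers rose with FGF8+10 in Pdgfra-low cells, with a median log2 change of 2.94, and 5 rose and 1 fell in Pdgfra-positive cells. Their summed level was 2128 to 2138 CPM in FGF8+10 Pdgfra-positive, 2557 to 2563 CPM in FGF8+10 Pdgfra-low, 1328 to 1342 CPM in Mock Pdgfra-positive and 1362 to 1369 CPM in Mock Pdgfra-low libraries, most of it KDR and TEK. The junction gene CDH5 averaged 1.39 CPM in FGF8+10 Pdgfra-positive, 19.8 CPM in FGF8+10 Pdgfra-low, 0.956 CPM in Mock Pdgfra-positive and 1.40 CPM in Mock Pdgfra-low libraries, and none of the 7 was at 0 throughout. Of the cardiac markers, 3 of the 5 tested fell in Pdgfra-positive cells and 4 of 5 in Pdgfra-low cells, and their sum was 22.9 to 23.8 CPM in FGF8+10 Pdgfra-positive, 11.3 to 11.7 CPM in FGF8+10 Pdgfra-low, 147.7 to 152 CPM in Mock Pdgfra-positive and 137 to 144 CPM in Mock Pdgfra-low libraries. Epithelial markers summed to 471 to 475 CPM in FGF8+10 Pdgfra-positive, 1293 to 1302 CPM in FGF8+10 Pdgfra-low, 665 to 666 CPM in Mock Pdgfra-positive and 1130 to 1135 CPM in Mock Pdgfra-low libraries, largely keratins, with EPCAM under 1 CPM in each group. Of these, 3 of 6 fell with FGF8+10 in Pdgfra-positive cells, and 2 rose and 2 fell in Pdgfra-low cells. POU5F1 and NANOG, which define pluripotent cells, averaged at most 0.0606 CPM in every group. LIN28A, also on that list, averaged 146 CPM in FGF8+10 Pdgfra-positive, 218 CPM in FGF8+10 Pdgfra-low, 37.6 CPM in Mock Pdgfra-positive and 41.8 CPM in Mock Pdgfra-low libraries. DPPA4, a further gene of the list, averaged 44, 44.1, 44.4 and 36.4 CPM in the same order of groups. Of the 5 pluripotency genes tested, 1 rose and 2 fell in Pdgfra-positive cells, and 2 rose and 2 fell in Pdgfra-low cells. Of the mesothelial markers, 2 of 6 rose and 2 fell in Pdgfra-positive cells and 3 rose and 3 fell in Pdgfra-low cells, and of the limb and lateral plate list 6 of 9 rose and 1 fell in Pdgfra-positive cells and 3 rose and 5 fell in Pdgfra-low cells. Neural markers summed to 0.622 to 1.92 CPM and blood markers to 1.41 to 4.76 CPM over the 8 libraries, with HBE1, an embryonic globin, at 0 in each. The part of these cell types in the replication gene differences was not tested.

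Compared per kilobase of counted exon, PCNA was the most abundant member, with a mean of 68.5 CPM per kb over the 8 libraries, followed by MCM7 with 36.2, and POLA2 was the least, with 0.959. Within the MCM ring, MCM7 was the highest and MCM5 the lowest per kb in all 4 groups, 58.1 against 14.5 CPM per kb in FGF8+10 Pdgfra-low and 22.4 against 5.92 CPM per kb in Mock Pdgfra-positive cells. Such levels depend on which exon bases could be counted. Reads that overlapped several genes were dropped, and 7 members share over 20% of their exon bases with another gene, TYMS with 47.9%, POLA2 with 40.0%, CCNE2 with 37.1%, MCM8 with 33.3%, MCM2 with 23.6%, GINS4 with 23.4% and PRIM1 with 22.2%. A further limit touches the 10 members with named pseudogenes in the table (ORC1, PCNA, RFC3, RFC5, FEN1, RPA2, RPA3, RRM2, TYMS and DUT), since reads that map to several places were also dropped.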

How the data were processed

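RNA was measured in 8 libraries of sorted H1-derived cells, in 4 groups of 2 that the sample titles name. The deposited file is a table of raw counts by gene name, without blank or summary lines. Per the submitters' processing notes, FastQC 0.11.8 and HISAT2 2.1.0 were used with GRCh38. Per the file headers, featureCounts 2.0.3 counted on GENCODE release 42. Its recorded command has the paired-end option without the one that counts pairs, so both mates were counted and counts overstate independent fragments. No strand was set, which mixes a gene with any overlapping antisense one, and reads of several genes or places were dropped. Trimming is not given in the sources used here.

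Testing used edgeR 4.0.16 in R 4.3.3 (TMM, filterByExpr over the 4 groups, robust quasi-likelihood fit with a mean per group and 4 residual degrees of freedom). Of 61209 names 22554 were tested, in 5 two-sided contrasts. P-values were adjusted by Benjamini-Hochberg over all tested genes within a contrast, and a gene was called at an adjusted p under 0.05. The SE was derived from the F statistic, as the absolute log2 fold change over the root of F. CPM are scaled by the TMM-adjusted library size. The variation between replicates that edgeR terms biological, which may here be technical, was estimated at a common value of 4.06%. Its median was 8.58% over all tested genes and 3.76% over the members. The code was tested on simulated counts.

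The 41 genes, the pathway, mitosis and marker lists and the promoter words were chosen with earlier results of these data known. For each role, values are given for the members with the largest and the smallest change in each population and for any called against its role. They cover every library, except that MCM3 and TYMS are given in Pdgfra-positive and MCM2 in Pdgfra-low libraries only. GINS1, ORC6 and RRM1 were also picked after their values were seen. Of other lists, up to 3 called genes per direction are named. A gene that this rule would name is not reported here. Alternatives were library totals without TMM, DESeq2 size factors, no filter on low counts, DESeq2 1.42.0, a fit on the contrast's groups alone, a replicate block and leaving out each library. Promoter windows came from RefSeq (GRCh38.p14).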

Additional observations from a re-analysis of the deposited data

Results flagged for a closer look

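The difference itself, the FGF8+10 effect in Pdgfra-positive cells minus that in Pdgfra-low cells, was tested. It passed an adjusted p under 0.05 (edgeR's quasi-likelihood test) for 22 members, which are listed for another look. The difference was negative for 21 and positive for 1, where 14% of tested genes passed with a negative and 12% with a positive one. On the log2 scale, the differences (± SE) in the genes of the helicase and its loading were -0.22 ± 0.052 for MCM3, -0.25 ± 0.045 for MCM4, -0.20 ± 0.054 for MCM6, -0.42 ± 0.046 for MCM7, -0.77 ± 0.080 for ORC6, -0.38 ± 0.091 for CDC6, -0.54 ± 0.11 for MCM10 and -0.49 ± 0.095 for GINS1. In the clamp and its loader they were -0.19 ± 0.054 for PCNA, -0.46 ± 0.10 for RFC2, -0.37 ± 0.091 for RFC3 and -0.35 ± 0.11 for RFC5. The genes of DNA synthesis and strand joining gave -0.55 ± 0.083 for POLA1, -0.27 ± 0.051 for POLE, -0.46 ± 0.080 for FEN1 and -0.23 ± 0.073 for LIG1. RPA1, RPA2 and RPA3, which coat single strands, gave -0.17 ± 0.045, -0.30 ± 0.087 and -0.36 ± 0.13, and the ribonucleotide reductase genes RRM1 and RRM2 gave -0.47 ± 0.052 and -0.50 ± 0.053. CDT1 was the one with a larger effect in Pdgfra-positive cells, 0.23 ± 0.085. Some of these calls rest on single libraries. Those of MCM6, CDT1, PCNA, RFC3, RFC5, LIG1, RPA1, RPA2 and RPA3 were each lost when some single library was left out. CDT1, LIG1, RPA3 and RFC5 lost theirs most often. All 22 rose in Pdgfra-low cells, and all but RFC2 rose in Pdgfra-positive cells. Apart from RFC2, these are thus differences in size between effects of the same sign. RFC2 was not called in Pdgfra-positive cells, at 0.0075 ± 0.071, so no sign is read from it there.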

How the results depend on the processing

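Over 2829 recomputed values of single members, 2742 kept their side of the threshold, 68 were no longer called and 19 became called. Among values called in either fit 0 changed direction, and the direction of values called in neither was not compared. With library totals in place of TMM, the median of all tested genes moved to 0.16 in Pdgfra-positive and 0.15 in Pdgfra-low cells, and genes that rose or fell numbered 8164 and 3991 (with TMM 5811 and 5658) in the first and 8113 and 4672 (with TMM 6300 and 6256) in the second. The member median was then 0.86 and 1.07, and 40 members rose in each population, with MCM8, GINS3, RFC2 and POLA2 gained in Pdgfra-positive cells. Leaving out each library in turn, 35 to 36 members rose in Pdgfra-positive and 40 to 40 in Pdgfra-low cells, with 0 to 0 falling in either. Under FGF8+10, 35 to 38 were lower and 0 to 0 higher in Pdgfra-positive cells. Under Mock, 17 to 27 were lower and 1 to 1 higher, 17 being the count without Mock Pdgfra-positive replicate 2, which lost MCM7, ORC1, CDT1, MCM10, RFC1, RFC4, POLD1, PRIM2, RPA3 and TYMS. For the difference of effects, 16 to 21 were negative and 0 to 1 positive. The positive count, CDT1 alone, was 0 with DESeq2 (adjusted p 0.0583), which also lost RPA3 (0.0566). Same-numbered libraries did not deviate together over all tested genes (Pearson's r of -0.00703 to 0.0243). Noise in genes of low counts enters that correlation, so it cannot exclude that same-numbered libraries share an origin. A replicate block left the counts at 36 and 40 higher, 38 and 26 lower with 1 higher, and 21 negative with 1 positive. Why calls were lost was not tested beyond the fewer libraries. With 2 libraries a group, changes near the SE of a low member such as POLA2 cannot be resolved.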
